A study of Saccharomyces cerevisiae with 6 samples.

Results

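Rap1 binding sites of budding yeast were compared between the start of histone H4 depletion (0 h) and 4 h later, the longest depletion sampled. The members were all peaks of the 0 h and the 4 h Rap1 ChIP-seq lists, 1212 and 4073 peaks, or 5285 of the 7723 peaks of the series. A 0 h peak that shared at least 1 bp with a 4 h peak was called retained and otherwise lost, and a 4 h peak that shared no base with a 0 h peak was called new. Saccharomyces cerevisiae strain UKY403, whose only supply of histone H4 depends on galactose, so that dextrose shuts it off, grew in galactose medium (YPG) and was then moved to dextrose medium (YPD). The 0 h group was collected at the move and the 4 h group after 4 h in dextrose, and both groups carried the same H4 shutoff construct. The medium changed with the H4 supply, so effects of the carbon source and of H4 depletion cannot be told apart in this pair of groups. Each group held 2 biological replicates from separate time courses (4 of the 6 samples), but 1 peak list per time point was analysed, so no spread between replicates and no test stands behind the values.

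Rap1 is a general regulatory factor of yeast: it binds DNA in a sequence-specific way upstream of ribosomal protein and glycolytic genes, where it recruits activators, and along the repeats of telomeres and at the silent mating loci, where it recruits the Sir and Rif proteins. Nucleosomes limit the access of such factors to sites inside genes. The series asks whether Rap1 occupies sites within genes when nucleosomes are lost.

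The height of a peak is the number of extended tags that cover its summit. The lists rested on 983197 kept tags at 0 h and 2327099 at 4 h, a ratio of 2.37, after removal of duplicate tags from 2433135 and 6156794. Heights are therefore given as counted and, for comparisons, as scaled heights, the height per 1000000 kept tags, in scaled tags. This scale shows relative height within each library and no absolute binding. Since 1 tag was kept per position and strand, no height could pass 292, which is 297 scaled tags at 0 h and 125 scaled tags at 4 h. Heights within 10% of that limit were found in 147 peaks at 0 h and 283 peaks at 4 h, and pairs with such a height were set apart. Intervals are 95% exact intervals and cover counting error only.

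Of the 1212 peaks at 0 h, 1053 were retained at 4 h and 159 were lost, 13.1% (interval 11.3 to 15.2%). The number lost varied with the rule: it was 57 among peaks with a -log10 q of at least 10 in both lists, 242 when summits had to lie at most 100 bp apart, and 531 against the 1212 strongest 4 h peaks. Of the 4073 peaks at 4 h, 3019 were new, 74.1% (72.7 to 75.5%). The overlap rule was seldom close: 6 retained peaks shared under 50 bp with a 4 h peak, the fewest being 6 bp, and 5 lost peaks lay under 50 bp from one, the nearest 14 bases away. A summit inside a protein-coding span is called coding, one outside such spans but at most 500 bp ahead of a coding start is called upstream, and any other elsewhere. At 0 h, 667 summits were upstream, 321 elsewhere and 224 coding. At 4 h, 2911 summits were coding, 766 upstream and 396 elsewhere.

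The retained sites kept their position. Of these, 998 could be matched 1-to-1 between the lists; the median distance between the summits was 9 bp, and 880 pairs (88.2%) lay within 50 bp. The median length was 387 bp at 0 h and 400 bp at 4 h. The summit was of the same location class at both times in 946 pairs, moved from upstream to coding in 24 and from coding to upstream in 7.

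The tallest retained peaks reached the height limit at both times, so their change could not be measured. The peak upstream of RPL2B, a gene of the large ribosomal subunit (chromosome IX, 316113 to 316710, build sacCer3), had a height of 292 in both lists. The peak upstream of RPS7A, of the small subunit (XV, 505069 to 505642), had 292 and 290, and that upstream of RPS11B (II, 332277 to 332796) had 292 and 291. The peaks upstream of FUN19 (I, 81788 to 82478) and between ATG34 and ATG19 (XV, 167944 to 168519) had 292 at both times. At the limit the scaled ratio of 4 h over 0 h is fixed at 0.422 by the tag numbers alone.

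Below the limit, the scaled heights of retained peaks were mostly lower at 4 h. Over 740 pairs the median log2 ratio of 4 h over 0 h was -0.57, with an interquartile range from -0.91 to -0.02. In 352 pairs (47.6%) the scaled height was at least 1.5 times lower, and in 89 pairs (12.0%) at least 1.5 times higher. The direction rests on the scaling: without it the 4 h heights were higher, with a median log2 ratio of 0.67 and no pair 1.5 times lower. The height limit also bounds these counts: a kept pair could have at most 113 scaled tags at 4 h. Peaks above that value at 0 h were thus bound to be lower. From 0 h heights of 150, 86 of 87 upstream, 42 of 43 elsewhere and 26 of 27 coding pairs were at least 1.5 times lower. With heights corrected for the limit the median log2 ratio was -0.34, with 254 pairs lower and 139 higher.

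**Figure D1:**
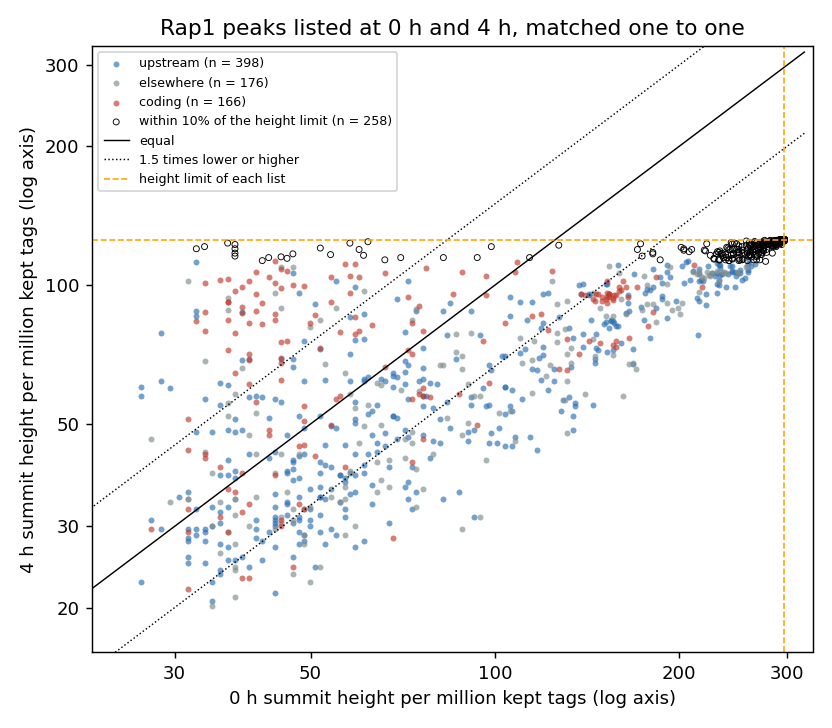
Scaled summit heights of the 998 matched pairs, 0 h on the x axis and 4 h on the y axis, both per 1000000 kept tags on log axes, coloured by the location of the 0 h summit. Most upstream and elsewhere pairs lie below the line of equality, while coding pairs lie on both sides; open circles mark the 258 pairs within 10% of the height limit (dashed lines).

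Upstream and elsewhere pairs were lower at 4 h, while coding pairs were split between lower and higher. The median log2 ratio was -0.59 over 398 upstream pairs, of which 199 were at least 1.5 times lower and 22 higher. Over 176 elsewhere pairs it was -0.69, with 104 lower and 16 higher. Over 166 coding pairs it was -0.01, with 49 lower and 51 higher. The difference between the medians of coding and all other pairs was 0.61 on the log2 scale.

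Among the groups compared, sites upstream of ribosomal protein genes had the lowest median ratio, and they were also tall at 0 h. Of 104 such pairs 81 were at the limit, and the 23 below it were all at least 1.5 times lower, with ratios from 0.403 to 0.545 and a median log2 ratio of -1.20. Their median scaled height was 240 at 0 h and 106 scaled tags at 4 h. The 375 upstream pairs of other genes had a median of -0.57, but they were weaker at 0 h, with a median of 68.1 scaled tags. Among pairs with 0 h heights from 150, the median was -1.09 over 43 elsewhere pairs. It was also -1.09 over 87 upstream pairs, ribosomal protein genes included. The low ratios were thus not particular to ribosomal protein genes. All 108 ribosomal protein genes with an upstream summit at 0 h kept one at 4 h, and of all genes 732 of 837 did. No upstream peak with a 0 h height of 76 or more was lost, whatever the gene. Within 10 kb of chromosome ends, 37 pairs below the limit had a median log2 ratio of -0.91, and 18 more were at the limit. Peaks with large 0 h heights can only reach 125 scaled tags at 4 h, so the lower ratios of tall peaks were bounded by the limit, and the part of this bound in the ratios was not tested beyond the corrected heights given in the closing section.

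The ratio differed with the height at 0 h. Among pairs with 0 h heights of 26 to 39, the median log2 ratio was 0.78 for 39 coding pairs, 0.06 for 60 upstream pairs and 0.12 for 28 elsewhere pairs. Weak 0 h peaks enter these pairs only if they were listed at 4 h: in the same height class 65 of 132 upstream, 41 of 71 elsewhere and 3 of 50 coding peaks were lost. Among heights of 55 to 74, where few were lost, the medians were 0.38 for 23 coding, -0.42 for 71 upstream and -0.61 for 31 elsewhere pairs. From 150 upwards they were -0.73 for 27 coding, -1.09 for 87 upstream and -1.09 for 43 elsewhere pairs. The median 0 h values in this class were 158, 214 and 199 scaled tags, in the same order. Kept pairs could have at most 113 scaled tags at 4 h, so these ratios and the differences between them were bounded by the limit.

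**Figure D2:**
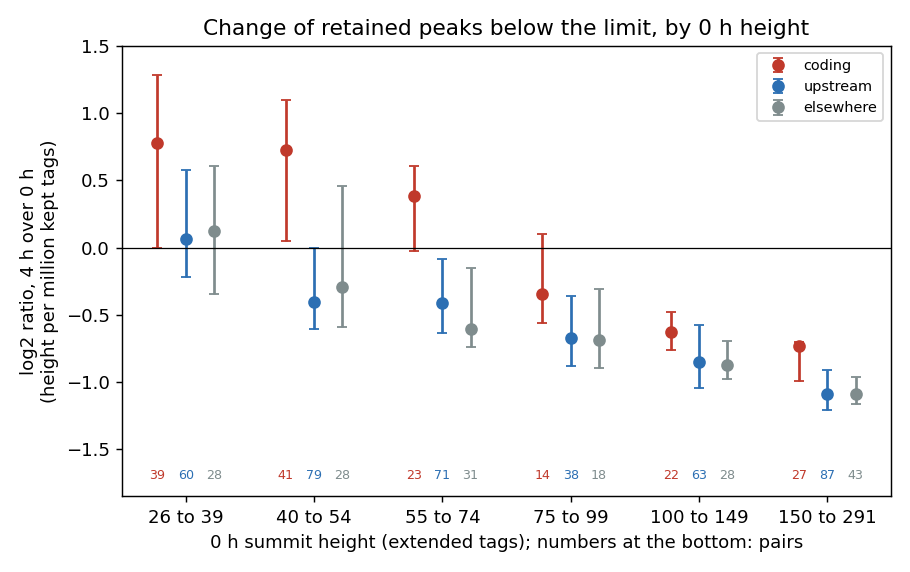
Median log2 ratio of scaled height, 4 h over 0 h, for matched pairs below the height limit, grouped by 0 h height (x axis, extended tags) and location; bars span the interquartile range and the numbers at the bottom count pairs. Coding pairs stand at 0.78 in the lowest height class and at -0.73 in the highest, above the upstream and elsewhere medians in every class. Ratios in the taller classes are bounded by the height limit.

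The coding pairs were of more than 1 kind. Coding spans with a gene name gave 90 pairs with a median log2 ratio of 0.43, of which 39 were at least 1.5 times higher and 11 lower. Spans that carry only a systematic name gave 76 pairs with a median of -0.59, of which 12 were higher and 38 lower. Among the latter were 39 pairs in spans of 5251 to 5410 bp, with median heights of 144 at 0 h and 218 at 4 h; 26 of these pairs were at least 1.5 times lower. Multi-copy sequences such as Ty retrotransposons share tags between copies, and the sources used here do not say how tags with several matches were placed, so values in these long unnamed spans are uncertain. Without them the 127 other coding pairs had a median of 0.15, with 43 higher and 23 lower, and the difference from all other pairs was 0.76.

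Among the 374 pairs below the limit with a 0 h height of at least 70, the 8 lowest ratios were all outside coding spans. The lowest ratio, 0.332 (0.241 to 0.455), belonged to a peak between YKL069W and YKL068W-A (XI, 308536 to 308971), with heights of 93 at 0 h and 73 at 4 h. A peak between WTM2 and WTM1, genes of transcriptional modulators (XV, 770114 to 770488), had 87 and 69 and a ratio of 0.335 (0.241 to 0.465). A peak upstream of SSB1, which encodes a ribosome-associated Hsp70 chaperone (IV, 43628 to 43989), had 91 and 73 and a ratio of 0.339 (0.246 to 0.466). These peaks were lower at 4 h even as counted, in a library with 2.37 times the kept tags.

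The other 5 ratios were of like size, and each of these heights was also lower as counted. The ratio was 0.356 (0.281 to 0.451) between HXK1, a hexokinase gene, and YFR054C, with heights of 159 and 134. It was 0.362 (0.279 to 0.469) at the site shared by the divergent genes EFB1, a translation elongation factor, and SSA1, a cytosolic Hsp70, with heights of 132 and 113. It was 0.362 upstream of KSH1 (heights 211 and 181), 0.364 between the cell wall mannoprotein genes CWP2 and CWP1 (129 and 111) and 0.375 upstream of ISR1, which is divergent to COG4 (115 and 102). In each of the 8 the interval lay below 1, but the 8 were picked for their low ratios, so this is no separate evidence. Over all 740 pairs below the limit the interval lay below 1 in 396.

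At the other end of the same set the ratios were closer to 1, and these pairs too were picked by their ratio. A peak inside TAO3, a gene of the morphogenesis network (IX, 110568 to 110873), went from 77.3 to 109 scaled tags (heights 76 and 254), a ratio of 1.41 (1.09 to 1.85). A peak upstream of FRE2, a ferric reductase gene (XI, 11522 to 11806), went from 72.2 to 102 scaled tags (heights 71 and 237), also a ratio of 1.41 (1.08 to 1.87). In the other 6, at DNF1, CDC13, GWT1, ICL1 and RRT13, GLG2, and TOD6 and SAS3, ratios ran from 1.15 to 1.30 and every interval included 1. No pair with a 0 h height of at least 70 in this set reached 1.5 times higher. Pairs near the limit were left out, so kept pairs could have at most 113 scaled tags at 4 h. Most pairs of this set could therefore not reach that ratio, whatever their change.

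Larger ratios were found at sites that were weak at 0 h, and the genes named here were chosen after their values were seen. Setting aside pairs near the limit left out 20 pairs that were at least 1.5 times higher, all of them near the limit at 4 h only, and 18 of them coding. Their heights were 32 to 69 at 0 h and 263 to 289 at 4 h, and the ratios, 1.63 to 3.68, were bounded by the limit. The peak in ALE2 (XVI) had heights of 32 and 279, or 32.5 and 120 scaled tags, a ratio of 3.68 (2.55 to 5.49). The peak in FAU1 had 33 and 282 (ratio 3.61), that in FUI1, the uridine permease gene, 37 and 285 (3.25), and that in SPT5, a transcription elongation factor gene, 37 and 273 (3.12). With such pairs kept, 69 of 208 coding pairs (33.2%) were at least 1.5 times higher.

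Below the limit, the highest ratio with summits at most 100 bp apart was 3.23 (2.22 to 4.86), at a peak between MCO10 and SFM1 (XV, 371961 to 372109), with heights of 31 and 237. The next were coding peaks in PHO87, a phosphate transporter gene (33 and 235, ratio 3.01), APE1, a vacuolar aminopeptidase gene (35 and 239, ratio 2.89), and PDR12, the weak-acid efflux pump gene (36 and 240, ratio 2.82). The peak in FKS1, a glucan synthase gene, had 40 and 249 and a ratio of 2.63. In these pairs the summits lay 3 to 20 bp apart. In some other pairs overlapping peaks held different summits. The 0 h peak upstream of MDM32 (height 32) overlapped a 4 h peak whose summit, of height 261, lay 332 bp away inside the gene; the ratio of 3.45 therefore compares different positions. The same holds for PDE1 (heights 28 and 183, summits 235 bp apart) and STE2 (32 and 205, 1138 bp apart). Of the 22 upstream pairs that were at least 1.5 times higher, 8 had a coding summit at 4 h.

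Lost peaks were mostly weak and mostly lay outside coding spans. Of 224 coding peaks 5 were lost (2.23%), of 667 upstream peaks 86 (12.9%) and of 321 elsewhere peaks 68 (21.2%). The median 0 h height was 36.6 scaled tags for lost and 103 scaled tags for retained peaks. Among the 316 weakest 0 h peaks, with heights of 26 to 43, 4 of 70 coding peaks (5.71%, 1.58 to 14.0%) were lost, against 73 of 160 upstream (45.6%, 37.7 to 53.7%) and 50 of 86 elsewhere (58.1%, 47.0 to 68.7%). Within this height class the coding interval did not overlap the others. Among the 297 peaks with heights of 44 to 75, 27 were lost. Of the 296 peaks with heights of 76 to 207, 1 was lost, and of the 303 taller peaks 4 were lost, all in the ribosomal DNA.

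**Figure D3:**
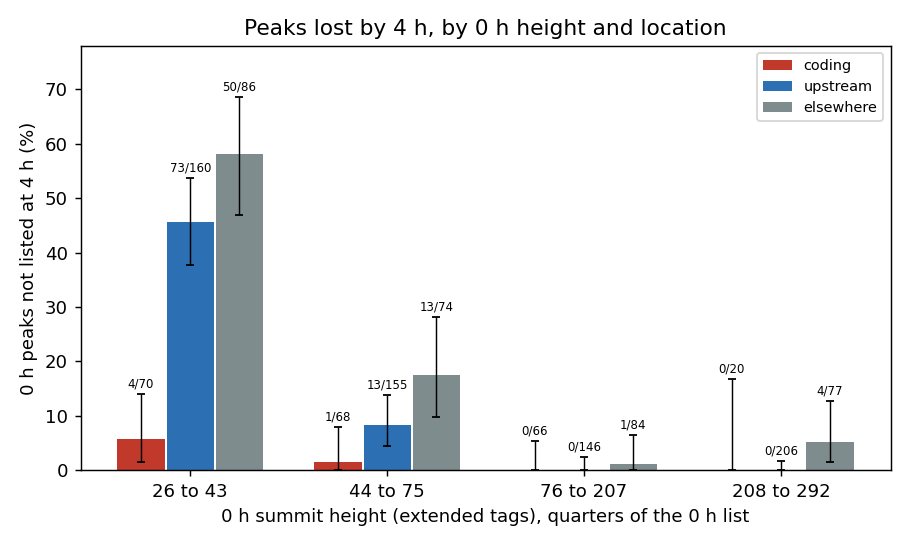
Percentage of 0 h peaks without a 4 h counterpart, by 0 h height (x axis, 4 classes of the list in extended tags) and location of the summit; bars start at 0, whiskers are 95% exact binomial intervals and fractions give lost over all peaks. In the weakest class 5.71% of coding peaks were lost against 45.6% of upstream and 58.1% of elsewhere peaks.

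The 4 h library was the deeper one, and its list reached lower scaled heights. Multiplied by the ratio of kept tags, the lost peaks would have had heights of at least 61.5 at 4 h, with a median of 85.2. This assumes an unchanged scaled height. The lowest listed 4 h height was 45, and 474 listed 4 h peaks were lower than 61.5. Retained upstream pairs had a median ratio of 0.67. Whether a drop of that size took lost peaks out of the list was not tested. The evidence for most was modest: the median -log10 q was 5.86, with 64 peaks under 5 and 19 at 10 or more. The nearest 4 h summit lay 182 to 10279 bp away, with a median of 1004 bp; it was new in 107 cases and retained in 52.

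Sites at tRNA genes made up a larger share of lost peaks than of retained ones. A summit within 200 bp of a tRNA gene was seen in 16 of 159 lost peaks (10.1%, 5.86 to 15.8%) and in 20 of 1053 retained peaks (1.90%, 1.16 to 2.92%). Among the 316 weakest peaks, 14 of 20 at tRNA genes were lost (70%, 45.7 to 88.1%) and 113 of 296 others (38.2%, 32.6 to 44.0%). The others include coding peaks, of which 4 of 70 were lost in this height class. Of the weakest upstream peaks 45.6% (37.7 to 53.7%) were lost and of the weakest elsewhere peaks 58.1% (47.0 to 68.7%). These intervals overlap that of the tRNA sites, so an excess at tRNA genes beyond other sites outside coding spans is not shown. The tallest lost peak outside the ribosomal DNA was of this kind, a peak between ALG13 and RIM8 with a summit 195 bp from a tRNA gene (VII, 412395 to 412724, height 86, or 204 at the 4 h depth).

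The ribosomal DNA of chromosome XII, a tandem repeat collapsed in the reference, held 11 peaks at 0 h and 2 broad peaks at 4 h. The 4 peaks counted as lost there had heights of 227 to 292, the highest of all lost peaks; tags of many repeat copies pile up on this stretch, and these peaks are uncertain. Without peaks in the ribosomal DNA and at tRNA genes 139 peaks were lost.

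Of the other lost peaks with the highest 0 h values, 4 lay 6347 to 13639 bp from a chromosome end. They were a peak between PAU4 and YLR462W (XII, 1064347 to 1064682, height 66), one between YRF1-7 and PAU22 (XVI, 6909 to 7218, height 65), one between YML133C and COS3 (XIII, 6221 to 6444, height 63) and one between YLL066C and PAU18 (XII, 11749 to 11895, height 57). Genes of the PAU and COS families and YRF1 genes are multi-copy families of subtelomeres, and tags can be shared between copies.

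Upstream sites were lost before genes of varied roles. The tallest was 76 bp before VAS1, the valyl-tRNA synthetase gene (VII, 671965 to 672209), with a height of 57. VPS3, a gene of vacuolar sorting, lost a peak of height 56 (IV, 1441187 to 1441594). ICL1, the isocitrate lyase gene of the glyoxylate cycle, lost one of height 54 (V, 287166 to 287473), as did CYC3, the cytochrome c heme lyase gene (I, 69687 to 69832). UGX2 lost one of height 50. In all, 107 of 6002 genes (1.78%) had a lost upstream summit, where a summit between divergent genes counts for both. The 5 lost coding summits lay in YOR376W (height 46), YKL102C (40), API2 (36), CIN2 (30) and YJR128W (29).

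New peaks lay mostly inside genes. Of 3019 new peaks, 2666 were coding (88.3%, 87.1 to 89.4%), 203 upstream (6.72%) and 150 elsewhere (4.97%), where coding spans make up 72.8% of the nuclear genome. Of 1054 retained 4 h peaks 245 were coding (23.2%). New peaks were lower than retained ones, with a median scaled height of 37.4 against 82.3 scaled tags. Even so, 2576 new peaks (85.3%) were at least as high in scaled height as the lowest 0 h peak (26.4 scaled tags), and 276 (9.14%) were at least as high as the median 0 h peak (76.3 scaled tags). With the 4 h list shortened to the 1212 strongest peaks by q, 540 were new and 92.4% of these coding; this matches the number of peaks and not the depth, whose part in the number of new peaks was not tested.

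The tallest new peaks stood close to the height limit. In ATP11, a gene of F1 ATPase assembly in mitochondria, a new summit 804 bp after the coding start (XIV, 43244 to 43731) had a height of 285, or 122 scaled tags. PHD1, a transcription activator gene of pseudohyphal growth, held one of height 284 (XI, 357017 to 357753). YGR210C held one of 282 (VII, 913560 to 914070). The scaled heights of the 10 tallest new coding peaks, 117 to 122, were above the median 0 h peak.

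PDC5, a pyruvate decarboxylase gene, held a new summit of height 281 at 754 bp (XII, 411238 to 411778). SFL1, a gene of a repressor of flocculation, held one of 279 (XV, 587960 to 588365). TIM44, a gene of the mitochondrial import motor, and AVT6, a vacuolar amino acid exporter gene, each held one of 278. GDE1, a glycerophosphocholine phosphodiesterase gene, held one of 276 and CPA1, a carbamoyl phosphate synthetase subunit gene, one of 272. These genes differ in role, and the summits stood from 349 bp (AVT6) to 1421 bp (GDE1) after the coding start.

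At ICL1 lost, retained and new peaks stood side by side. The upstream peak of 0 h, 457 bp before the start, was lost. A new summit of height 281, or 121 scaled tags, lay 1185 bp inside the gene (V, 285533 to 286072). Between ICL1 and RRT13, at the tRNA gene SUP19, a retained pair went from 74.2 to 89.0 scaled tags, a ratio of 1.20 (0.913 to 1.59). Another retained pair between these genes went the other way, from 47.8 to 43.0 scaled tags, a ratio of 0.899.

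New upstream summits were fewer and lower. The tallest was 309 bp before UGA4, the GABA permease gene (IV, 83776 to 84107), with a height of 218, or 93.7 scaled tags. ERG7, the lanosterol synthase gene of sterol synthesis, gained one of height 212 at 51 bp (VIII, 238880 to 239273). PUL3 and CDC53, the cullin gene of SCF ubiquitin ligases, each gained one of 199. LSM8, divergent to REC107, gained one of 198, KTR4, divergent to TAF5, one of 189, FIT1, a cell wall mannoprotein gene of iron uptake, one of 185 and VPS45 one of 174. In all, 256 of 6002 genes (4.27%) had a new upstream summit.

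Of the new peaks elsewhere, the 5 tallest lay between NGK1 and VMA6 (XII, height 239), PCL1 and CAF40 (XIV, 232), NUP53 and RIM13 (XIII, 231), YCR006C and DFP3 (III, 208), and IRC7 and YFR057W (VI, 199). The summit near NUP53 was 20 bp from its coding span and that near NGK1 was 94 bp away. The spans hold no untranslated regions, so such summits can lie in transcribed sequence.

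New summits were spread over many genes. Of 6002 protein-coding genes, 2020 (33.7%) held at least 1 new coding summit: 1540 held 1, 363 held 2, 77 held 3 and the rest 4 to 6. The share was higher in longer genes, from 11.2% of the shortest to 55.0% of the longest when genes were split into 5 classes of length, while the number per kb of span was 0.295 in the shortest and 0.273 in the longest class. Within genes the summits were spread along the whole span: of 10 equal stretches from start to end, the third held most (12.7%) and the last fewest (8.33%).

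Some genes held many new summits. YBL005W-B and YMR045C, both of 5269 bp, held 6 each, and YFL002W-A and YGR161W-B, both of 5314 bp, held 5 each. These belong to the long spans with a systematic name only, of which 38 of 40 held a new summit, 139 summits in all. Among named genes, PRB1, a vacuolar protease gene of 1908 bp, held 5 with heights of 53 to 85. PYC2, a pyruvate carboxylase gene, held 5 with heights of 71 to 180, and DNF2, a phospholipid flippase gene, held 5. A further 33 genes held 4, of which TKL1, the transketolase gene, has the shortest span (2043 bp).

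Glycolysis and fermentation genes held new coding summits most often among the 23 gene lists described, in 17 of 21 members (81.0%), against 33.7% of all genes. Per kb of coding span the list had 0.786 new summits, against 0.301 over all genes; only the short histone genes were higher by this measure, at 1.02. The highest were in PDC5 (281), in PDC1, the main pyruvate decarboxylase gene (271), and in PFK1, a phosphofructokinase gene (235). The summits in PDC5 and PDC1 stood 754 and 752 bp after the start, and whether these related genes share tags was not tested. The upstream peak at TDH2, a glyceraldehyde phosphate dehydrogenase gene, was lost (height 34), while 6 members kept an upstream summit.

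Other lists of carbohydrate metabolism ranged from 70.6% of members down to 33.3%, against 33.7% and 0.301 per kb over all genes. Trehalose and glycogen genes held new coding summits in 12 of 17 members (70.6%, 0.371 per kb), led by GPH1, glycogen phosphorylase (267), TPS1, trehalose phosphate synthase (238), and GLG1, glycogenin (217). Hexose transporters and sensors held them in 13 of 19 (68.4%, 0.562 per kb), led by RGT2, a glucose sensor (240), HXT2 (211) and HXT5 (192). HXT11 and HXT17 lost upstream peaks of heights 45 and 30. Hexose transporter genes are alike in sequence, and tags may be shared between them. The TCA cycle held them in 7 of 18 (38.9%), led by ACO1, aconitase (184), SDH1 (163) and LSC2 (152), and galactose pathway genes in 3 of 9 (33.3%), PGM2 (182), GAL4 (102) and GCY1 (95). Upstream peaks were lost at KGD1 (height 30) and GCY1 (42), the latter nearer to the start of the divergent gene RIO1. GCY1 kept another upstream peak, with heights of 35 and 75.

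Genes of protein synthesis and folding differed among themselves, where all genes together stood at 33.7% and 0.301 per kb. Aminoacyl-tRNA synthetase genes held new coding summits in 12 of 18 members (66.7%, 0.372 per kb), the highest in SES1 (248), DPS1 (140) and DED81 (118). Translation factor genes held them in 22 of 39 (56.4%, 0.425 per kb), the highest in the near-identical copies TEF1 (244) and TEF2 (239), of which the values cannot be assigned to 1 copy, and in TIF4632 (188). Chaperone genes held them in 17 of 31 (54.8%, 0.567 per kb), led by HSP78 (213), HSP104 (133) and SSA4 (118), and AHA1 lost an upstream peak (43). Ribosomal protein genes held them in 33 of 137 (24.1%), but per kb of span, any introns included, at 0.342. The highest were in RPS4A (205), RPL36A (199) and RPS4B (190). The summits in RPS4A and RPS4B stood 330 and 359 bp after the start, and whether these related genes share tags was not tested. Mitochondrial ribosomal protein genes held them in 11 of 54 (20.4%, 0.293 per kb), led by RSM7 (200), MRPL9 (182) and RSM25 (168), with upstream peaks lost at MRPL16 (35) and MRPL28 (33). The lost summits were nearer to the starts of the divergent genes URA7 and CMI8. Upstream summits at 0 h stood at 108 of 137 ribosomal protein genes and at 837 of all 6002 genes (13.9%).

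Biosynthetic lists lay between, above the 33.7% and 0.301 per kb of all genes. Amino acid biosynthesis genes held new coding summits in 37 of 66 members (56.1%, 0.475 per kb), led by CPA1 (272), LYS2 (245) and ARO8 (213), with upstream peaks lost at LEU2 (38) and HIS5 (34). The lost summit ahead of LEU2 lay in the tRNA gene SUP53 and is also among the lost peaks at tRNA genes. Fatty acid and sterol synthesis genes held them in 14 of 29 (48.3%, 0.365 per kb), led by ERG10 (238), FAS2 (218) and FAS1 (200), with upstream peaks lost at ERG24 (38) and ERG26 (35). The lost summit at ERG24 was nearer to the start of the divergent gene PRM1.

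At the cell surface and in transport, cell wall genes held new coding summits in 24 of 36 members (66.7%, 0.506 per kb), led by FLO10, a flocculin gene (249), CWP2 (223) and SED1 (194), and HSP150 lost an upstream peak (37). ABC transporter genes held them in 15 of 21 (71.4%), but their spans are long and the number per kb, 0.247, was below that of all genes; MDL1 (151), NFT1 (138) and PDR5 (120) held the highest. Phosphate response genes held them in 12 of 21 (57.1%, 0.446 per kb), led by PHO85 (222), PHO5 (194) and VTC2 (186), and the upstream peak of VTC2 was lost (36). Iron uptake genes held them in 11 of 22 (50.0%, 0.414 per kb), led by ARN1 (257), FRE5 (153) and FRE6 (141). Proton pump genes held them in 5 of 16 (31.3%, 0.388 per kb), led by VPH1 (248), PMA2 (134) and PMA1 (94). Over all genes the values were 33.7% and 0.301 per kb.

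Lists of nuclear genes ranged from 25.0% to 45.5% of members, against 33.7% of all genes, and the interval of each list held 33.7%. Per kb they ranged from 0.162 to 1.02 new summits, against 0.301 over all genes. Remodeler and nuclear pore genes stood above all genes by share of members but below them per kb. Chromatin remodeler and histone chaperone genes held new coding summits in 17 of 44 members (38.6%, 0.178 per kb), led by STH1 (142), IOC2 (113) and SNF2 (95). Nuclear pore genes held them in 13 of 30 (43.3%, 0.181 per kb), led by NUP120 (180), NUP192 (152) and NUP100 (150). NUP1 lost an upstream peak (39), whose summit was nearer to the start of the divergent gene KTR1. A list of RAP1, its silencing and telomere partners and transcription regulators such as GCR1 and FHL1 held them in 7 of 21 (33.3%, 0.162 per kb). The highest were in SIR4 (120), SIR2 (95) and GCR1 (83). RNA polymerase II subunit genes held them in 3 of 12 (25.0%, 0.362 per kb), RPB11 (66), RPO21 (66) and RPB2 (63), and cyclin genes in 4 of 14 (28.6%, 0.227 per kb), led by CLB3 (97), PCL5 (92) and CLB4 (75). Histone genes held them in 5 of 11 (45.5%), and their 1.02 per kb was the highest of the lists, resting on 5 summits; the tallest were in the histone H3 genes HHT2 (198) and HHT1 (173) and the linker histone gene HHO1 (111); the H3 genes encode the same protein, and tags may be shared between them.

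**Figure D4:**
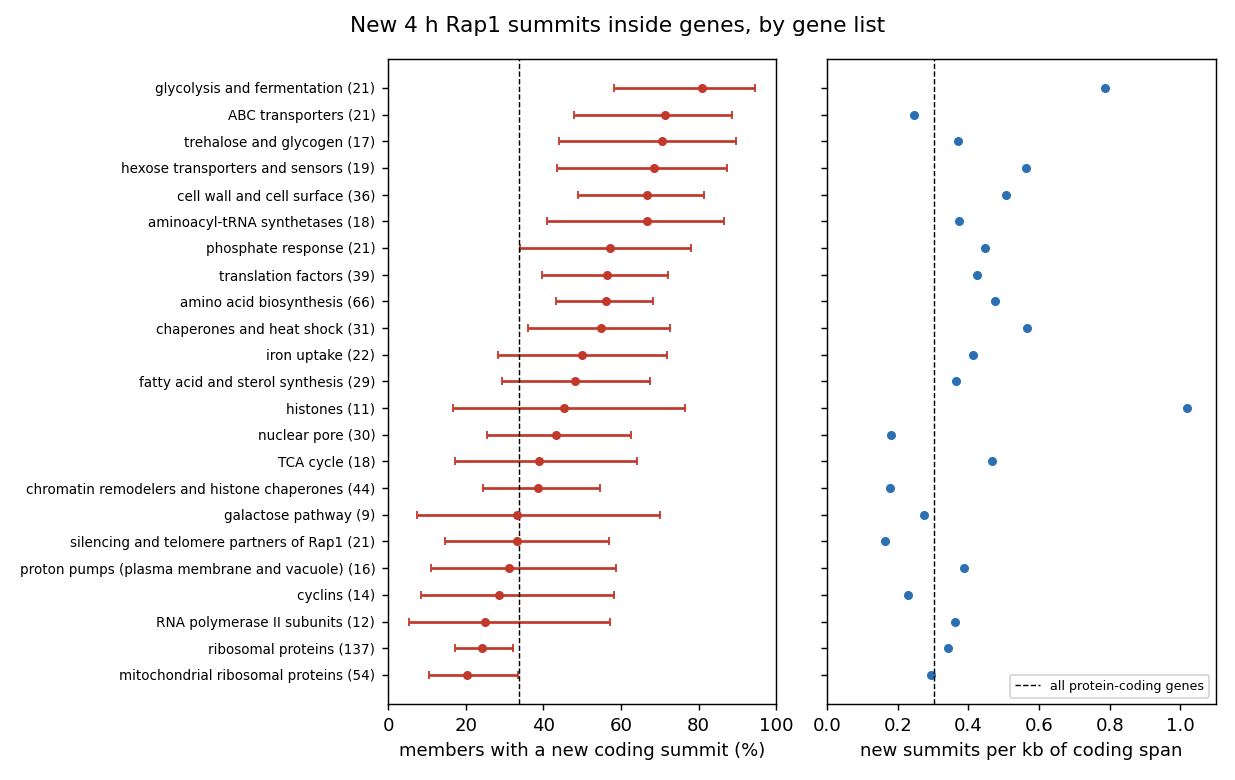
Members of each gene list with a new coding summit at 4 h (left, % of members with 95% exact binomial intervals) and new coding summits per kb of coding span (right); dashed lines mark all 6002 protein-coding genes (33.7% and 0.301 per kb) and numbers in brackets count members. Glycolysis genes stand at 81.0% and 0.786 per kb, and ABC transporters at 71.4% but 0.247 per kb. The list of silencing and telomere partners of Rap1 also holds transcription regulators such as GCR1 and FHL1.

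Lost and new peaks were spread over all chromosomes, with differences within counting error. The share of 0 h peaks lost was highest on chromosomes VI (6 of 25, 24.0%), IX (9 of 40, 22.5%) and III (6 of 32, 18.8%), and lowest on XIV (7 of 81, 8.64%), VIII (5 of 54, 9.26%) and IV (15 of 145, 10.3%). New peaks per 100 kb were most frequent on VIII (28.3), VI (27.8) and I (26.5) and least on X (21.5), IX (22.3) and XI (23.4), with 25.0 over the 16 chromosomes. For both measures the interval of each of the 16 chromosomes held the overall value. Within 10 kb of chromosome ends 7 of 71 peaks at 0 h were lost (9.86%) and 55 of 128 peaks at 4 h were new (43.0%, 34.3 to 52.0%), against 74.1% of all 4 h peaks.

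**Figure D5:**
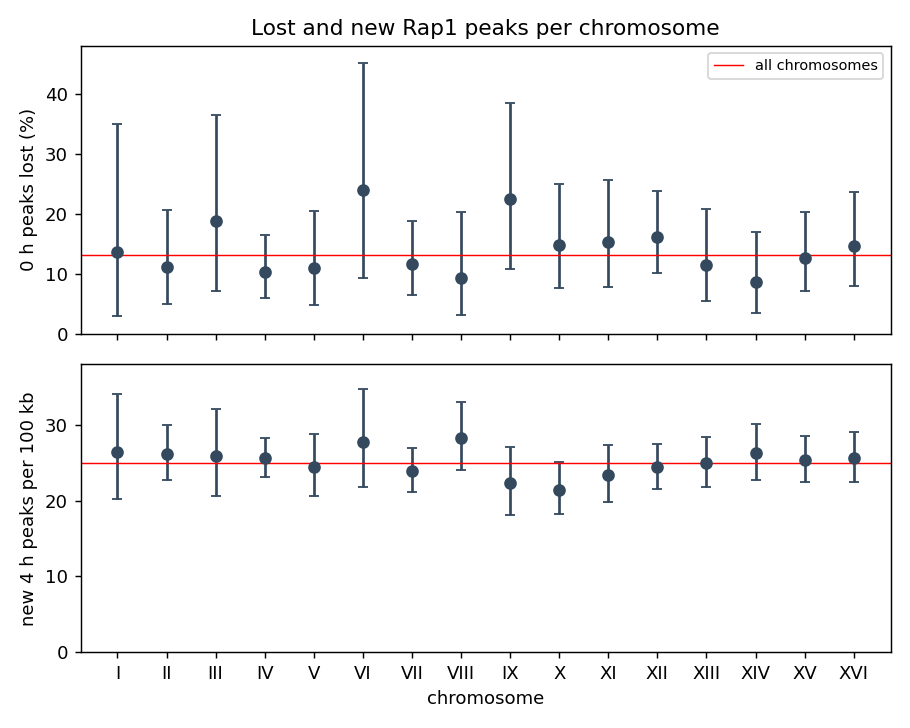
Share of 0 h peaks lost by 4 h (top, % with 95% exact binomial intervals) and new 4 h peaks per 100 kb (bottom, with 95% exact Poisson intervals) for the 16 nuclear chromosomes; red lines give the value over all chromosomes. Every interval holds the overall value, 13.1% for lost peaks and 25.0 per 100 kb for new peaks.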

How the data were processed

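Rap1 ChIP-seq of strain UKY403 was processed by the authors with Bowtie, SAMtools and MACS2 on build sacCer3, per the submitters' processing notes. Peaks were called with MACS2 2.0.10.20130712 at a q cutoff of 0.05 without a control library, with tags extended by a fixed length and 1 tag kept per position and strand, per the file headers. The deposited signal is the unscaled number of extended tags at the summit (pileup), the deposited fold enrichment is the ratio of that height to the local background, and the -log10 q is the authors' caller's own value. Each list came from 1 alignment file; the sources used here do not say if that file combines the replicates.

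Heights were scaled to 1000000 kept tags of the header. Pairs were mutual 1-to-1 overlaps, and pairs with a height within 10% of the limit were left out of ratios; ratio intervals are exact conditional binomial intervals. Locations came from RefSeq's R64 gene table (the assembly of sacCer3, with 6002 protein-coding genes on all 16 nuclear chromosomes). The strand was read from systematic names. Of the spans, 96.4% are multiples of 3, so most are coding lengths. Each span runs from its first to its last base and includes any intron. Those of RPS4A (1042 bp), RPL36A (766 bp) and RPS4B (1055 bp) are not multiples of 3. A summit called coding can therefore lie in an intron. A summit in 2 overlapping spans was given to the longer. Dubious reading frames are not marked. SciPy and pandas were used, and the functions were tested on simulated data. Regions that map or fragment unevenly are not corrected for, since no control library was used.

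The members and gene lists were chosen with earlier results of these data known. The text names the highest 10 new coding, 8 new upstream and 5 new elsewhere peaks, the highest 10 lost peaks with up to 5 upstream and 3 coding, the 8 lowest and 8 highest ratios among pairs with a 0 h height of at least the median of 70, the 5 tallest retained pairs, the first 8 genes by number of new summits (ties by shorter span), and up to 3 members of each list by new coding height with all members that lost an upstream peak. Other names were chosen after their values were seen. A planned search for Rap1 motifs was not run here, because no genome sequence was used.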

Additional observations from a re-analysis of the deposited data

How the results depend on the processing

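Counts of lost, retained and new peaks stayed within 1.5 times under a -log10 q of at least 5, an overlap of 50% of the shorter peak, removal of 10 kb at chromosome ends and, added after seeing the data, removal of ribosomal DNA and tRNA peaks. Lost peaks numbered 57 at a -log10 q of at least 10, 242 with summits at most 100 bp apart as the match, and 531 with the 4 h list shortened to 1212 peaks; that list gave 681 retained and 540 new peaks, of which 92.4% were coding. A fold enrichment of at least 3 gave 1366 new peaks, and requiring summits 200 bp inside the span gave a coding share of 66.5%. The median log2 ratio of pairs was -0.66 scaled by all tags, -0.47 by fold enrichment, -0.34 with heights corrected for the limit and -0.73 with pairs at the limit kept; heights not scaled gave 0.67, the opposite direction, with 0 pairs lower and 422 higher. Pairs at least 1.5 times higher numbered 139 after the correction, and pairs lower 583 with limit pairs kept. The excess of coding over other pairs, added after seeing the data, was 0.56 by fold enrichment, 0.77 corrected, 0.85 with limit pairs kept, 0.69 with summits at most 100 bp apart and 0.76 without long unnamed spans, against 0.61; the cause of these shifts was not tested. No paired analysis was possible because the lists give no values per replicate, and leaving out a replicate could not be run for the same reason. Depth limits the weak end of both lists: the lowest scaled height listed was 26.4 at 0 h and 19.3 at 4 h.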

Other observations

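Lost peaks within 20 kb of a chromosome end were set beside the nearest 4 h peak. Of 15 such peaks outside the ribosomal DNA, chosen after the values were seen, 10 had a retained peak as the nearest 4 h peak, of height 199 to 292, and 5 had a new one, of height 65 to 186. Over all 159 lost peaks the nearest was retained in 52. Within 10 kb of chromosome ends 73 of 128 peaks at 4 h were retained (57.0%), against 25.9% of all 4 h peaks. Whether the 10 of 15 differ from that local share was not tested. The nearest 4 h summit of the 15 lay 518 to 2754 bp away, with a median of 783 bp. The lost peak between PAU4 and YLR462W, of height 66, lay 569 bp from a retained peak of height 292, and that between YML133C and COS3, of height 63, lay 783 bp from one of 292.

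The share of genes with a new coding summit was set beside the fate of their upstream summit. Of 107 genes with a lost upstream summit, 46 held a new coding summit (43.0%, interval 33.5 to 52.9%), and of 732 genes with a retained upstream summit 259 did (35.4%, 31.9 to 39.0%). The intervals overlap, and genes with more than 1 upstream summit can count in both. The tallest new coding summits among the 46 were in ICL1 (281), SPT8, a subunit gene of the SAGA complex (248), and ENA5, a sodium pump gene (237). SPT8 had lost an upstream peak of height 38 and ENA5 one of height 32. ENA5 belongs to a cluster of near-identical genes, so its values are uncertain.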
